A study of Mus musculus with 4 samples.

Results

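Lipid-associated macrophages are macrophages that take up and break down lipid in fat tissue, and 9 genes known from them were followed in dermal white adipose tissue (dWAT): Mmp12, Spp1, Gpnmb, Trem2, Tyrobp, Cd9, Lgals3, Itgax and Atp6v0d2. They were taken by name out of the 22913 genes listed, and all 9 were found. The list was drawn up knowing that Mmp12 and Spp1 are higher in aged dWAT in telogen, so it was chosen by FPKM in OTD against YTD, and the values of that comparison are given as a description from which nothing is read.

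The study microdissected dWAT, the fat layer around the lower ends of hair follicles (HFs), from C57BL/6 mice to ask how it differs with age and with the hair cycle. Mice were old, at 18 months, or young, at 2 months, and were taken in telogen, the resting phase, and in anagen, the growth phase, which was induced by depilation, so that anagen and depilation cannot be told apart. The 4 groups were OTD (old, telogen), YTD (young, telogen), OAD (old, anagen) and YAD (young, anagen), each with 1 library, and the study's methods give 20 mice per group. The age field of the labels gives 18 months for YTD and 2 months for OAD, against the titles, and the ages of the titles and the protocol were used.

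With 1 library per group there was no replicate, no test was possible and no p-value is given, and each difference is one between 2 libraries. Levels are FPKM, the fragments of a gene corrected for its length and for the depth of the library, which can be compared between genes. A change is the difference of log2(FPKM + 1), and a gene was counted as past the threshold when this was at least 1 in size. Fold values are ratios of FPKM with a 95% interval from the estimated fragments of the gene, and this interval covers counting error only, not the spread between mice or libraries. The libraries held roughly 19100000 to 24500000 fragments, as estimated from the lowest FPKM values, and 3 fragments of Mmp12 correspond to an FPKM of 0.0860 to 0.110.

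The tissue was mixed in each library. Adipoq, which encodes the adipocyte hormone adiponectin, was at an FPKM of 280 in YTD, 427 in OTD, 76.5 in YAD and 103 in OAD. The summed FPKM of 8 skeletal muscle markers was 89728 in YTD, 57158 in OTD, 9786 in YAD and 13252 in OAD. That of 9 adipocyte markers was lower in each library, at 10049, 10049, 1734 and 2388 in the same order. Keratinocyte and melanocyte genes were detected too. Genes of the mitochondrial genome made up 44.7% of the FPKM sum of YTD, 52.7% of that of OTD, 14.4% of that of YAD and 18.3% of that of OAD, and each comparison of anagen with telogen depends on how libraries are scaled. In such bulk tissue fewer cells of a type and less RNA per cell cannot be told apart.

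In fat tissue, lipid-associated macrophages surround dying or overfilled adipocytes. TREM2 is a surface receptor that binds lipids and lipoproteins, and it signals through TYROBP (also called DAP12), an adaptor that recruits the kinase SYK. Cells that receive this signal express genes of lipid uptake, of the lysosome and of matrix breakdown. MMP12 is the macrophage elastase, SPP1 is the secreted protein osteopontin, GPNMB is a glycoprotein of lysosomes and melanosomes, CD9 is a tetraspanin, LGALS3 is galectin-3, ITGAX is the integrin chain CD11c and ATP6V0D2 is a subunit of the proton pump that acidifies lysosomes.

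The genes lie on several chromosomes of the GRCm38 build. Mmp12 was listed at chr9:7344381-7369499, Spp1 at chr5:104435118-104441050, Gpnmb at chr6:49036518-49058182, Trem2 at chr17:48346401-48352273 and Tyrobp at chr7:30413788-30417577. Cd9 was listed at chr6:125460266-125494791, Lgals3 at chr14:47367751-47386160, Itgax at chr7:128129547-128150656 and Atp6v0d2 at chr4:19876841-19922605. The spans of Cd9 and Spp1 overlap other annotated genes, Gm28809 and Gm26728 for Cd9 and Gm42793 for Spp1, and the 3' end of the Mmp12 span overlaps that of Mmp1b, which was listed at 0 in all 4 libraries. The sources used here do not say whether fragments were counted by strand.

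The promoter sequence of 7 of the 9 members was at hand. The 250 bases before the start site of 5 of them are printed to show the promoters of genes with high and low levels in anagen side by side. Mmp12, Spp1, Trem2 and Itgax were highest in OTD, while Gpnmb was highest in OAD. The sequences are from RefSeq on GRCm38.p6, read 5' to 3' on the plus strand, from chr9:7344147-7344396 for Mmp12, chr5:104434861-104435110 for Spp1, chr17:48346151-48346400 for Trem2, chr7:128129300-128129549 for Itgax and chr6:49036268-49036517 for Gpnmb. Capitals mark matches, on either strand, to TGANTCA (the AP-1 motif), GAGGAA (the core bound by PU.1, the factor of the myeloid lineage) or CATGTG (the E-box of the MITF and TFE family).
Mmp12: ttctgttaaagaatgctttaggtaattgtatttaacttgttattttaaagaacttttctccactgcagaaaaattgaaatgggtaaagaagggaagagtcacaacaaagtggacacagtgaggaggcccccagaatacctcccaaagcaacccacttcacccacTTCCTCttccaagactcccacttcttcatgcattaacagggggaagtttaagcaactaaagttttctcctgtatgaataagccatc
Spp1: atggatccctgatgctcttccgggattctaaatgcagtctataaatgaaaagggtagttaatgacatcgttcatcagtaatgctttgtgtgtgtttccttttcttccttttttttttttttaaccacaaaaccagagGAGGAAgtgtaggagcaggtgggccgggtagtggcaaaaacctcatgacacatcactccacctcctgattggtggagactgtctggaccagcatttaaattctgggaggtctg
Trem2: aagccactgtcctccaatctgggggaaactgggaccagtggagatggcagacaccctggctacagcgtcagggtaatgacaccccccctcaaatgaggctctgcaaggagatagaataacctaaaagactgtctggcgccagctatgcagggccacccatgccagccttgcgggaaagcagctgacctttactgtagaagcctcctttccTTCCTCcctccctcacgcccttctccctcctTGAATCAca
Itgax: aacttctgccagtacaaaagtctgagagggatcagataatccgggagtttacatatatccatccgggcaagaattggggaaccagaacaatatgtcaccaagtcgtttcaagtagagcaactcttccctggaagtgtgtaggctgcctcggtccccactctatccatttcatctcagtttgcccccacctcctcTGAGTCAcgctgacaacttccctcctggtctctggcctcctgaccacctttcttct
Gpnmb: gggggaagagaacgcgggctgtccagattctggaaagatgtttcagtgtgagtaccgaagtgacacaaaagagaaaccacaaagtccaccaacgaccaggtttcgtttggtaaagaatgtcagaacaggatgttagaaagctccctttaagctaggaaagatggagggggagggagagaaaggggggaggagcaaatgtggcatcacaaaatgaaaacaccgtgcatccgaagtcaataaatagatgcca
Mmp12 had 1 match to the PU.1 core, at bases -86 to -81 from the start site on the minus strand, and Spp1 had 1 at -113 to -108. Trem2 had 1 match to the AP-1 motif at -9 to -3 and 1 to the PU.1 core at -40 to -35 on the minus strand. Itgax had 1 match to the AP-1 motif at -56 to -50. Gpnmb and Lgals3 had none of the motifs in this window, and Cd9, which is encoded on the minus strand, had 1 E-box at -38 to -33. The RefSeq start of Lgals3 lies 6109 bases from the start listed for the gene. Among 32851 promoter windows of this length, 6.7% held the AP-1 motif, 23.3% the PU.1 core and 12.3% the E-box, so that such matches are common, and a match is a description of the letters only.

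Mmp12 was the member with the widest range. Its FPKM was 1.47 in YTD, 56.7 in OTD, 0.833 in YAD and 0.795 in OAD. OTD stood apart and the other libraries were near the low end, and the anagen libraries did not differ beyond counting error. The ratio of OTD to YTD was 38.6 (28.2 to 54.2), a log2 change of 4.55 and the second highest of all 22913 genes. OAD was lower than OTD by 5.01 on the log2 scale, the lowest change of any gene in that comparison, which shares OTD with the comparison that chose the gene. In young mice anagen was below telogen by a small margin, with a log2 change of -0.43, and this small difference changed sign in 3 of the 9 alternative settings.

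Spp1 and Trem2 followed almost the same course as each other. Spp1, the secreted ligand of integrins and CD44, was at an FPKM of 6.62 in YTD, 29.0 in OTD, 1.69 in YAD and 1.91 in OAD. Trem2, the lipid receptor, was at 4.73 in YTD, 20.4 in OTD, 1.44 in YAD and 1.41 in OAD. For both, OTD was highest, YTD was between, and the 2 anagen libraries were lowest and not distinguishable by counting error. The ratio of OTD to YTD was 4.39 (3.58 to 5.45) for Spp1 and 4.31 (3.31 to 5.69) for Trem2. The distance between their profiles, taken as log2(FPKM + 1) minus its mean over the libraries, was 0.26. This was the smallest that either gene had to any gene with a symbol among the 14203 that reached an FPKM of 1 in some library.

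Tyrobp, the adaptor of TREM2, had the same order of phases but a smaller difference with age. Its FPKM was 59.1 in YTD, 121 in OTD, 11.8 in YAD and 6.14 in OAD. The ratio of OTD to YTD was 2.05 (1.82 to 2.32), and that of OAD to YAD was 0.518 (0.362 to 0.735), so that the old library was the higher one in telogen and the lower one in anagen. Trem2 per unit of Tyrobp was 0.0800 in YTD, 0.168 in OTD, 0.122 in YAD and 0.229 in OAD, as ratios of FPKM. This ratio was higher in the old library of each phase, and no interval was made for it. Its telogen values come from the comparison that chose the members. In anagen only about 26 fragments of Trem2 stand behind the value in OAD and 25 in YAD, and Tyrobp had about 52 and 94. Trem2 itself did not differ there beyond counting error, at 0.975 (0.541 to 1.76) for OAD to YAD.

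Itgax, the CD11c chain found on lipid-laden macrophages and on dendritic cells, was the member with the lowest levels. Its FPKM was 0.532 in YTD, 3.59 in OTD, 0.142 in YAD and 0.175 in OAD, and the anagen values rest on about 11 and 15 fragments and did not differ beyond counting error. OTD was 6.75-fold (4.72 to 9.79) above YTD.

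Gpnmb had another order. Its FPKM was 7.57 in YTD, 40.9 in OTD, 142 in YAD and 155 in OAD, so that the anagen libraries were highest. OTD was 5.40-fold (4.72 to 6.20) above YTD, while the ratio of OAD to YAD was 1.09 (1.05 to 1.13). Anagen was above telogen 18.8-fold (16.6 to 21.4) in young mice and 3.80-fold (3.59 to 4.02) in old mice.

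Cd9 and Lgals3, both also made by keratinocytes and many other cells, were the most abundant members in anagen and had nearly parallel profiles, with a distance of 0.11. Cd9 was at an FPKM of 110 in YTD, 221 in OTD, 402 in YAD and 384 in OAD. Lgals3 was at 104 in YTD, 198 in OTD, 344 in YAD and 331 in OAD. In both genes the anagen libraries were highest and nearly equal, and YTD was lowest. The ratio of OTD to YTD was 2.01 (1.89 to 2.14) for Cd9 and 1.91 (1.80 to 2.03) for Lgals3. On the log2 scale these changes were 1.0 and 0.93, the values just inside and just outside the threshold of 1.

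Atp6v0d2, the form of the pump's d subunit found in macrophages and osteoclasts, followed neither course. Its FPKM was 0.538 in YTD, 4.46 in OTD, 3.61 in YAD and 2.10 in OAD. OTD and YAD were highest and did not differ beyond counting error, at a ratio of 1.23 (0.914 to 1.67), and YTD was lowest with about 11 fragments. In telogen the ratio of OTD to YTD was 8.29 (4.35 to 16.9), and that of OAD to YAD was 0.582 (0.406 to 0.826). Anagen was above telogen 6.72-fold (3.50 to 13.7) in young mice and below it, at 0.472-fold (0.330 to 0.664), in old mice.

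**Figure D1:**
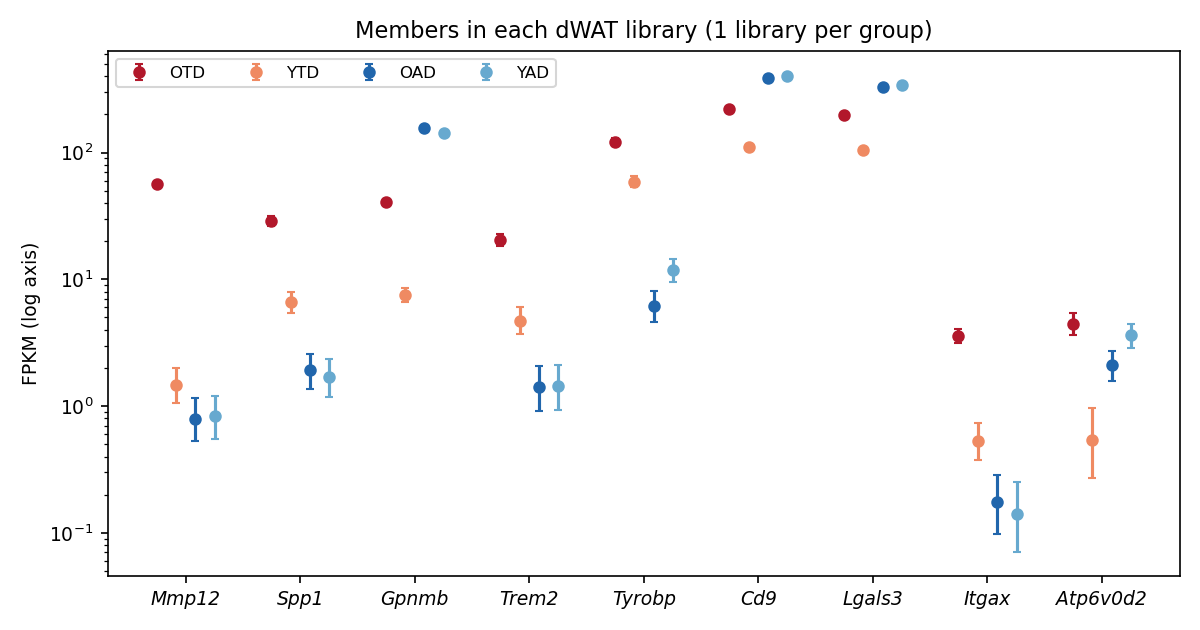
FPKM of each of the 9 members (log axis) in the 4 libraries, with 95% counting intervals that cover counting error only. Mmp12, Spp1, Trem2, Tyrobp and Itgax are highest in OTD and lowest in the anagen libraries, Gpnmb, Cd9 and Lgals3 are highest in the anagen libraries, and Atp6v0d2 is high in OTD and YAD.

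In telogen all 9 members were higher in OTD than in YTD, and 8 were past the threshold, where 1.67% of all 17230 genes with a value in either library were past it in that direction. The log2 changes were 4.55 for Mmp12, 2.29 for Gpnmb, 1.98 for Spp1, 1.90 for Trem2, 1.83 for Atp6v0d2, 1.58 for Itgax, 1.03 for Tyrobp, 1.0 for Cd9 and 0.93 for Lgals3. Their median was 1.83 and that of all genes -0.03. Since the members were chosen with this comparison known, these counts describe the choice. Of all genes 287 were past the threshold upward and 333 downward, and 490 and 186 when mitochondrially encoded genes were left out of the scaling. The 9 members remained higher in OTD in each of the 9 alternative settings, and the counts past the threshold ranged from 5 to 9.

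In anagen, a comparison the choice of the members did not use, none of the 9 members was past the threshold with age, where 1.18% of all genes were past it in either direction. OAD was above YAD for 3 members and below it for 6, with a median of -0.03 and a range from -0.85 for Tyrobp to 0.12 for Gpnmb, beside a median of 0.00 over all genes. Tyrobp was at -1.08 after rescaling to TPM. For Mmp12, Spp1, Trem2 and Itgax the interval of the ratio held 1: it was 0.955 (0.552 to 1.71) for Mmp12, 1.13 (0.701 to 1.81) for Spp1, 0.975 (0.541 to 1.76) for Trem2 and 1.23 (0.548 to 3.07) for Itgax. The ratios of Cd9, 0.956 (0.923 to 0.990), and Lgals3, 0.963 (0.930 to 0.997), were close to 1. The anagen changes of all members but Tyrobp, Atp6v0d2 and Itgax took the other sign in 1 to 3 of the 9 settings.

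**Figure D2:**
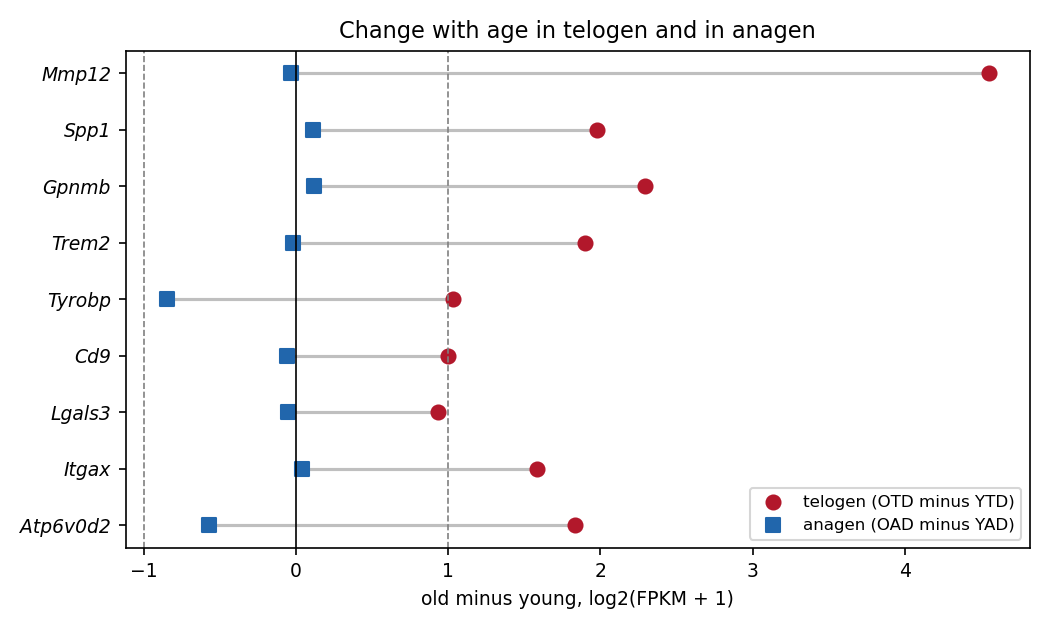
Difference of log2(FPKM + 1) between old and young mice for each member, in telogen (circles) and in anagen (squares), with dashed lines at -1 and 1. The telogen values run from 0.93 to 4.55 and the anagen values from -0.85 to 0.12, where differences near 0 take either sign under other scalings.

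Between the phases the members parted. In young mice 4 members were past the threshold upward in anagen, where 16.1% of all genes were, namely Gpnmb at 4.06, Cd9 at 1.86, Lgals3 at 1.72 and Atp6v0d2 at 1.58 on the log2 scale. The 3 past it downward, where 16.7% of all genes were, were Tyrobp at -2.23, Spp1 at -1.50 and Trem2 at -1.23, and their number was 0 to 1 under 3 of the rescalings. The remaining Mmp12 and Itgax were at -0.43 and -0.42. For Itgax this small value reflects the pseudocount of 1, as its ratio of YAD to YTD was 0.268 (0.117 to 0.511). With pseudocounts of 0.1 and 0.01 Itgax was at -1.38 and -1.83, and 4 members were past the threshold downward. In old mice 1 member was past the threshold upward, where 16.1% of all genes were, which was Gpnmb at 1.90, while Cd9 was at 0.80 and Lgals3 at 0.74. The 5 past it downward, where 15.6% of all genes were, were Mmp12 at -5.01, Tyrobp at -4.10, Spp1 at -3.37, Trem2 at -3.15 and Itgax at -1.97. Of all genes, 2829 were past the threshold upward and 2938 downward in young mice as deposited, and 5891 and 1274 after rescaling to TPM, while in old mice these were 2854 and 2759 against 4923 and 1502. Each of these comparisons shares a telogen library with the comparison that chose the members.

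The general markers of macrophages moved with the 5 members that were low in anagen, and between the phases so did those of several other cell types. Of 15 pan-macrophage markers, 14 were higher in OTD than in YTD, with a median of 0.38, and 1 was past the threshold. In anagen 14 of 15 were lower in OAD than in YAD, with a median of -0.22. Anagen was below telogen with a median of -1.51 in young and -2.30 in old mice, and these medians stayed below 0 under each scaling that did not use the markers themselves. The summed FPKM of the markers was 542 in YTD, 878 in OTD, 208 in YAD and 176 in OAD, and Adgre1, which encodes F4/80, was at 4.59, 9.68, 0.780 and 0.614 in the same order. In young and old mice the anagen medians were -1.77 and -1.67 for adipocyte, -1.24 and -2.79 for fibroblast and -1.69 and -1.96 for endothelial markers. They were -3.22 and -2.12 for skeletal muscle, -2.00 and -2.62 for monocyte and -1.62 and -2.50 for mast cell markers. Neutrophil markers were at 0.00 and 0.08, keratinocyte markers at 3.92 and 4.89 and melanocyte markers at 3.86 and 3.10. The part of any of these cells in the differences of the members was not tested.

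The geometric mean FPKM of the pan-macrophage markers was 14.0 in YTD, 19.9 in OTD, 4.46 in YAD and 3.44 in OAD. Relative to it, all 9 members were higher in OTD than in YTD. Since they were chosen with this comparison known, the telogen ratios describe the choice. The log2 ratio that remained was 4.76 for Mmp12, 2.54 for Atp6v0d2, 2.24 for Itgax, 1.92 for Gpnmb, 1.62 for Spp1 and 1.60 for Trem2, and it was 0.53 for Tyrobp, 0.50 for Cd9 and 0.42 for Lgals3. In the comparison of old with young mice in anagen the same ratios lay between -0.57 for Tyrobp and 0.68 for Itgax. In the comparison of young anagen with young telogen they were -0.07 for Trem2, -0.26 for Itgax, -0.32 for Spp1, -0.67 for Tyrobp and 0.83 for Mmp12. For old anagen against old telogen they were -1.33 for Trem2, -1.82 for Itgax, -1.39 for Spp1, -1.77 for Tyrobp and -3.63 for Mmp12. All 5 were thus lower in old anagen relative to the markers, and Mmp12 had opposite signs at the 2 ages. About 40 fragments of Mmp12 stand behind the value in YTD and 27 behind that in YAD. Each comparison of anagen with telogen shares a telogen library with the comparison that chose the members. These ratios are therefore not independent of the choice. The other 4 members, Gpnmb, Cd9, Lgals3 and Atp6v0d2, were higher in anagen relative to the markers at both ages, from 3.38 to 5.88 in young mice and from 1.45 to 4.46 in old mice.

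The choice of marker mattered for Tyrobp. Cd68, a lysosomal protein of macrophages, was the pan-macrophage marker with the highest change in telogen, at an FPKM of 17.5 in YTD, 41.6 in OTD, 7.05 in YAD and 5.90 in OAD. Per unit of Cd68, Tyrobp was at 2.91 in OTD and 3.37 in YTD, the lower value being that of the old library, and at 1.04 in OAD and 1.68 in YAD. Mmp12 per unit of Cd68 was at 0.0838 in YTD, 1.36 in OTD, 0.118 in YAD and 0.135 in OAD. Spp1, Trem2 and Itgax were also highest per unit of Cd68 in OTD, at 0.697, 0.490 and 0.0862, and lowest in YAD, at 0.240, 0.205 and 0.0202. The members were chosen with OTD against YTD known, so nothing is read from the high ratios in OTD.

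**Figure D3:**
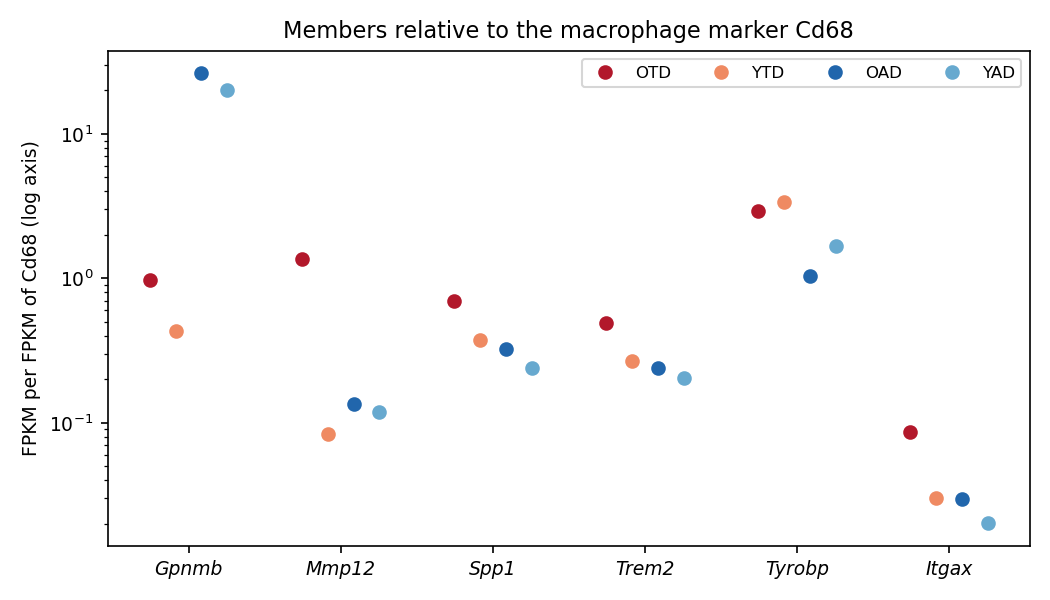
FPKM of 6 members divided by the FPKM of Cd68 in the same library (log axis), with the points of each member standing for the 4 libraries. Mmp12, Spp1, Trem2 and Itgax are highest in OTD, Tyrobp is highest in YTD, and Gpnmb is at 26.3 in OAD and 20.2 in YAD against 0.982 in OTD and 0.432 in YTD. The members were chosen with OTD against YTD known.

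Gpnmb is also made by melanocytes, and melanocyte markers were high in the libraries in which it was high. Of 11 melanocyte markers, 10 were past the threshold upward in anagen in young mice and 10 in old mice, and their summed FPKM was 19.5 in YTD, 21.6 in OTD, 789 in YAD and 477 in OAD. With age the gene and the markers differed. In anagen each of the 11 markers had less signal in OAD than in YAD, the median change being -0.80, while Gpnmb was at 0.12. In telogen the markers had a median of -0.01, with 5 higher and 6 lower, from -0.73 for Tyrp1 to 0.84 for Sox10. Sox10 was at 4.35 FPKM in YTD and 8.55 FPKM in OTD. Dct, an enzyme of pigment synthesis, was at 2.86 FPKM in YTD and 1.51 FPKM in OTD. Gpnmb was at 2.29 on the log2 scale. Gpnmb per unit of Dct was 2.65 in YTD, 27.1 in OTD, 0.845 in YAD and 1.54 in OAD. Per unit of Mlana, a melanosome protein whose telogen change was 0.14, it was 1.07 in YTD, 5.20 in OTD, 0.611 in YAD and 0.898 in OAD. In both ratios OTD was highest, by different factors, and Gpnmb was chosen with the telogen comparison known. How much of the Gpnmb signal came from melanocytes was not tested.

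Keratinocyte markers were also high in the libraries in which Gpnmb, Cd9 and Lgals3 were high. The summed FPKM of 11 such markers was 224 in YTD, 136 in OTD, 4017 in YAD and 5154 in OAD. In telogen 10 of the 11 were lower in OTD, with a median of -0.67. Cd9 and Lgals3, chosen with this comparison known, were at 1.0 and 0.93. The 8 markers of skeletal muscle had the same telogen median, -0.67. Their part in the differences was not tested.

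**Figure D4:**
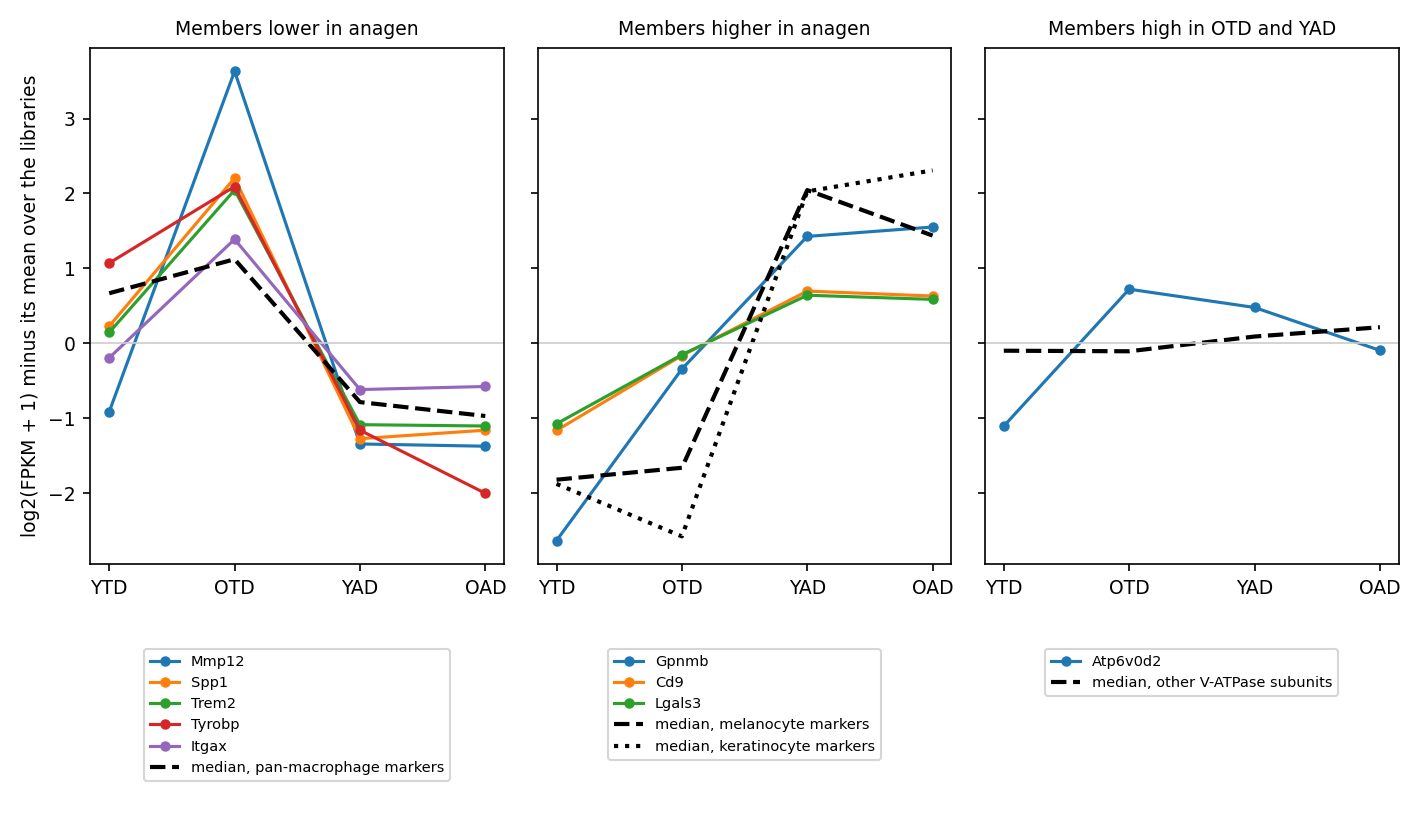
Each member's log2(FPKM + 1) minus its mean over the libraries, with the median of related marker lists in black. The 5 members of the left panel are low in anagen, as are the pan-macrophage markers. The 3 of the middle panel are high in anagen, as are the melanocyte and keratinocyte markers. Atp6v0d2 (right) varies, while the median of the other pump subunits stays near its mean as scaled here.

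The genes that work with TREM2 and TYROBP were looked at in the same libraries. Of 16 genes of signalling below the pair, 13 were higher in OTD than in YTD, with a median of 0.30, and 1 was past the threshold. This was Hcst, which encodes the related adaptor DAP10, at 4.89 FPKM in YTD and 11.1 FPKM in OTD, or 1.04 on the log2 scale. Lat2, a linker protein, was next at 0.71, and Grb2, a general adaptor, was lowest at -0.36. Of 10 other receptors that use TYROBP, 8 were higher, with a median of 0.23, and 1 was past the threshold. This was Clec5a, a lectin receptor of myeloid cells, at 0.235 FPKM in YTD and 1.82 FPKM in OTD, or 1.19, followed by Sirpb1c at 0.81. Only about 3 fragments of Clec5a stand behind the value in YTD and 21 behind that in OTD. The Sirpb1 genes are near copies of one another, so their values are uncertain.

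Of 24 further lipid and lysosome genes of lipid-associated macrophages, 18 were higher in OTD and 6 lower, with a median of 0.49, and 2 were past the threshold. Both encode cathepsins, proteases of the lysosome: Ctss was at 40.4 FPKM in YTD and 116 FPKM in OTD, or 1.49, and Ctsk was at 42.0 and 112, or 1.39. Lpl, the lipoprotein lipase that adipocytes make as well, was lowest at -0.32. In anagen none of the 24 was past the threshold with age, and their median was 0.07. Rescaled to the pan-macrophage markers, the telogen median of these genes was -0.02, against 1.10 for the 9 members. The members were chosen with the telogen comparison known, so nothing is read from this difference.

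The other subunits of the pump did not share the pattern of Atp6v0d2. Of the 24 listed, 22 had a value in telogen, none was past the threshold, 9 were higher and 13 lower in OTD, and the median was -0.04, which became 0.09 when mitochondrially encoded genes were left out of the scaling. Their range was from -0.43 for Atp6v0a1 to 0.56 for Atp6ap2. Atp6v0d1, the paralog found in most cells and named here for that reason, was at an FPKM of 48.2 in YTD, 50.7 in OTD, 67.2 in YAD and 67.2 in OAD. Atp6v0d2 per unit of Atp6v0d1 was 0.0112 in YTD, 0.0879 in OTD, 0.0537 in YAD and 0.0313 in OAD, so that the d2 form was a small part of the d subunits in each library. Tfeb, a master regulator of lysosomal genes, was the lowest of 4 MITF and TFE factors in telogen, at -0.71, and the median of these factors was 0.05. Genes of osteoclasts and of cell fusion, a setting in which ATP6V0D2 is known to act, had a median of 0.11 over 9 genes, with Tnfrsf11a at 0.48, Itgb3 at 0.46, Acp5 lowest at -0.31 and none past the threshold. The highest was Dcstamp, a gene of cell fusion named after its values were seen, at 0.91, with an FPKM of 0.874 in OTD and listed at 0 in the other libraries.

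Among the partners of the other members, those of Itgax differed most. CD11c pairs with the beta 2 chain, encoded by Itgb2, which was at an FPKM of 2.86 in YTD, 11.6 in OTD, 1.16 in YAD and 0.871 in OAD, or 1.71 in telogen. Icam1, which encodes a ligand of beta 2 integrins, was at 10.5 in YTD and 23.3 in OTD, or 1.08. Itgam, the alpha chain next to Itgax on chromosome 7, was at 2.38 and 3.83, or 0.52. Of the 5 beta 2 integrin and ligand genes, 4 were higher in OTD and 1 lower, with a median of 0.52, and 2 were past the threshold. The lower one was Itgad, below an FPKM of 1 and named after its values were seen. It was at 0.359 FPKM in YTD and 0 in OTD, or -0.44. Of 8 osteopontin receptors none was past the threshold, with a median of 0.03, Itga8 highest at 0.77 and Itgav lowest at -0.39. Of 7 other galectins none was past it, with a median of 0.00, Lgals4 highest at 0.67 and Lgals7 lowest at -0.42. Of 7 tetraspanins and CD9 partners none was past it, with a median of 0.18, the leukocyte tetraspanin Cd53 highest at 0.76 and Ptgfrn lowest at -0.06.

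Mmp12 lies in a cluster of metalloproteinase genes on chromosome 9. Of 9 genes made up of its neighbours and elastin, 4 had a value in telogen. Mmp3, which encodes stromelysin, was at an FPKM of 5.86 in YTD, 18.6 in OTD, 1.25 in YAD and 0.681 in OAD, or 1.52 in telogen, and was the only one of the 4 past the threshold. Mmp13, below an FPKM of 1 and named after its values were seen, was at 0.0556 FPKM in YTD and 0.823 in OTD, or 0.79. Mmp27 was at 0.18, and Eln, which encodes elastin, the substrate after which MMP12 is named, was at 35.7 FPKM in YTD and 29.3 FPKM in OTD, or -0.28.

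**Figure D5:**
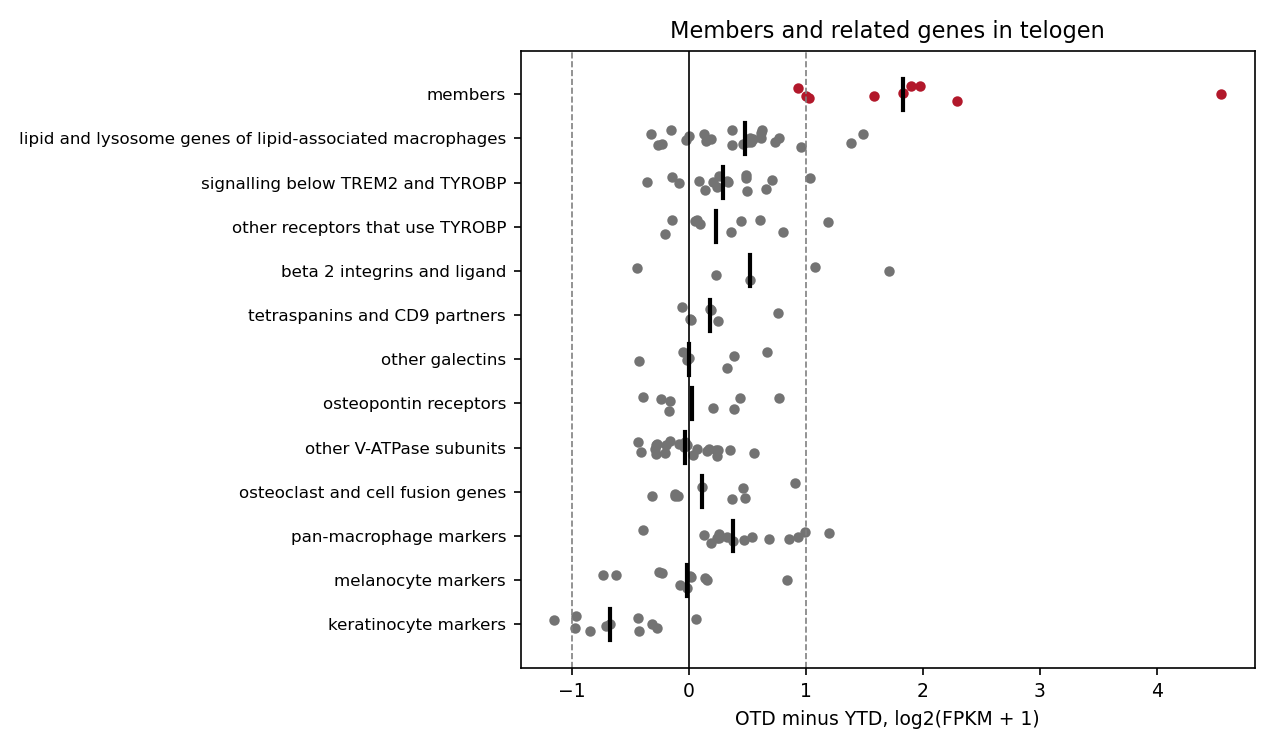
Difference of log2(FPKM + 1) between OTD and YTD for the 9 members (red) and for genes of related lists (grey), 1 point per gene, with the median of each list as a black bar and dashed lines at -1 and 1. The members, chosen with this comparison known, lie between 0.93 and 4.55. The medians of the other lists drawn lie between -0.67 and 0.52 as scaled here, and single genes in them reach 1.71. Lists not drawn include the fibroblast and endothelial markers, with medians of 0.54 and 0.78.

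The genes with the most similar profiles over the 4 libraries differed between members. They were sought among those with a symbol out of the 14203 that reached an FPKM of 1 in some library. Nearest to Mmp12 were Fosb, a subunit of AP-1, at a distance of 0.80 in log2 units, and Cxcl1, a chemokine of neutrophils, at 1.08, followed by Gm2399, Gm10800 and Plac9b. Fosb was at an FPKM of 22.5 in OTD and 0.385 to 0.513 in the other libraries, and Cxcl1 was at 15.1 in OTD and 0.109 to 0.345 in the others, so that both were, like Mmp12, high in OTD alone. Near Spp1, beside Trem2, were Plac9b at 0.29 and Clec7a, which encodes the receptor Dectin-1, at 0.30, and the chemokine gene Ccl21a was at 0.46. Nearest to Gpnmb were Npy, which encodes neuropeptide Y, at 0.29, and then Hspa1b, Dusp2, Acot1 and Junb at 0.87 to 1.10. Npy was at an FPKM of 0.192 in YTD, 5.62 in OTD, 18.6 in YAD and 26.2 in OAD. With 4 libraries such a likeness is a description of 4 values.

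Markers of other cells that could hold some of the members varied too. In telogen the median was 0.44 over 5 monocyte markers, of which 4 were higher and 1 lower in OTD. Plac8 was past the threshold at 1.28, and the lower one was Ly6c2 at -0.28, with 10.1 FPKM in YTD and 8.13 in OTD. The median was 0.14 over 8 markers of dendritic and Langerhans cells, which also express Itgax, with none past the threshold. The medians were 0.12 over the 7 of 10 neutrophil markers with a value, where S100a9 at 2.93 and Retnlg at 1.25, listed at 0 in YTD, were past the threshold upward, Camp at -2.00, listed at 0 in OTD, was past it downward and the defining Ly6g was at 0 in OTD and YTD, 0.36 over 4 mast cell markers and -0.09 over 5 NK cell markers. They were 0.26 over 9 adipocyte markers, 0.54 over 7 fibroblast markers and 0.78 over 5 endothelial markers. Past the threshold among these were Dcn at 1.38 and Lum at 1.03, both fibroblast markers, while the fibroblast marker Col1a1 was at -0.49. The summed FPKM of the dendritic and Langerhans cell markers was 28.0 in YTD, 32.6 in OTD, 11.6 in YAD and 11.9 in OAD. The part of these cells in the levels of the members was not tested.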

How the data were processed

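RNA of microdissected dWAT was sequenced in 4 libraries, grouped by their titles as YTD, OTD, YAD and OAD with 1 each. For 22913 genes the authors deposited FPKM in every library, with each gene's position on GRCm38 and a length. Of these lengths, 97.0% are multiples of 3, so they are coding lengths. The submitters' processing notes name bcl2fastq, TopHat2 and GRCm38. The counting tool, annotation and strand setting are not given in the sources used here. Of 22166 Ensembl identifiers, 21750 were matched to a symbol, and the other 747 identifiers are loci outside the annotation. Gene overlaps were read from GENCODE on GRCm38 and promoters from RefSeq on GRCm38.p6, where 7 of 9 members were found.

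FPKM were used as deposited. Changes are differences of log2(FPKM + 1), which understate those of low genes, and the threshold was 1. Genes above 0 in either library of a comparison entered it. The product of FPKM and length clusters, among low genes of 2000 to 4000 bp, at what 1 fragment is worth, and depth was taken from it. This is rough. Intervals (95%, exact binomial) and the floor of 3 fragments cover counting error only. No test was made.

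The members, the 23 further lists and the rules were chosen with earlier results of these data known. Genes to name were the members, the highest, the second highest and the lowest telogen change of each list among genes that reach an FPKM of 1 somewhere, defining markers, and the 5 nearest profiles of Mmp12, Spp1 and Gpnmb by Euclidean distance. For several lists, among them the pan-macrophage markers, only some of these genes are named in the text. A gene that this rule names is not reported here. Alternatives were other pseudocounts, a filter, 5 rescalings and a threshold of 1.5. The steps were tested on simulated libraries. Python 3.11.15, numpy 2.4.6, pandas 2.3.3, scipy 1.17.1 and matplotlib 3.10.9 were used.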

Additional observations from a re-analysis of the deposited data

Results flagged for a closer look

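The age difference of 6 members had opposite signs in telogen and anagen, each with 1 library per group, so the differences were not tested. The telogen change minus the anagen change was 4.58 for Mmp12, 1.92 for Trem2, 1.87 for Tyrobp, 1.07 for Cd9, 0.98 for Lgals3 and 2.40 for Atp6v0d2, on the log2 scale. For Mmp12, Trem2, Cd9 and Lgals3 the anagen change was between -0.06 and -0.02 and took the other sign under 1 of the alternative settings, so the opposite sign carries little weight there. For Tyrobp, at -0.85, and Atp6v0d2, at -0.57, it was negative in each of the 9 settings. The anagen minus telogen change of Atp6v0d2 was 1.58 in young and -0.82 in old mice. The old minus the young change was -2.40, which was not tested either. About 11 fragments of Atp6v0d2 stand behind the value in YTD, and its change in old mice was 1.08 when the libraries were rescaled to the pan-macrophage markers.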

How the results depend on the processing

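In telogen the members were higher in OTD under every setting tried, and only the rescaling to the pan-macrophage markers moved the count past the threshold by over 1.5 times, to 5 from 8. In anagen 1 member, Tyrobp, was past the threshold downward with age after rescaling to TPM and after leaving out keratin, keratin-associated protein and melanocyte genes, against 0 with the FPKM as deposited. For young anagen against young telogen the median was 0.58 with a filter of an FPKM of at least 1, which removed Itgax, against -0.42. The members past the threshold downward numbered 1 under TPM, 1 without the keratin and melanocyte genes, 0 relative to the pan-macrophage markers and 1 at a threshold of 1.5, against 3. With a pseudocount of 0.1 or 0.01 they numbered 4. For old anagen against old telogen the median was -3.74 with a pseudocount of 0.1, -3.85 with 0.01 and -0.80 relative to the pan-macrophage markers, against -1.97, and the members past the threshold upward numbered 3, 3 and 4 under TPM, without the keratin and melanocyte genes and relative to the pan-macrophage markers, against 1. Other than where the construction shows the cause, the cause was not tested.

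Of all genes in telogen, 287 were past the threshold upward and 333 downward. These were 1081 and 1063 with a pseudocount of 0.1, 1800 and 1645 with 0.01, 490 and 186 without mitochondrially encoded genes, 56 and 1246 relative to the pan-macrophage markers, and 70 and 71 at a threshold of 1.5. Over the settings, the counts of all genes ran from 31 to 1236 upward and from 27 to 1199 downward with age in anagen, against 128 and 80. They ran from 1684 to 8904 and from 537 to 4858 between the young libraries, against 2829 and 2938, and from 1704 to 11481 and from 87 to 4838 between the old ones, against 2854 and 2759. The median of all genes between young anagen and telogen was 0.45 under TPM, 0.59 without the keratin and melanocyte genes and 1.02 relative to the pan-macrophage markers, and between the old libraries it was 0.32, 0.47 and 1.74. The median of the members minus that of all genes was -0.44, -0.46 and -0.58 in young and -1.99, -2.02 and -2.54 in old mice, beside -0.44 and -1.98 as deposited. No paired analysis was possible because each group has 1 library, and for the same reason no library could be left out. Depth limits Itgax and Atp6v0d2 most, at about 11 fragments in their lowest libraries.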
